A study of Nicotiana tabacum with 6 samples.

Results

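Tobacco BY-2 cells carrying an inducible Arabidopsis PIN5 gene (AtPIN5) were searched for tobacco transcripts that rose with induction and stood in the same order as the transgene across the induced libraries. Of 69491 gene models of the Nitab4.5 annotation, 73 met the rule, and they are called the ordered transcripts here. A gene model had to have at least 1 read over the control libraries and at least 5 TPM (a level corrected for transcript length and scaled to 1000000 per library) in the third induced library. Its lowest induced level had to be at least 3 times its highest control level. Its TPM also had to rise strictly from the first to the second to the third induced library, as that of AtPIN5 did. The rule used the level in all 6 libraries, so the induction and the order of these transcripts are given as a description and are not tested.

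BY-2 cells are a suspension culture, grown in the dark, from the Bright Yellow 2 cultivar of Nicotiana tabacum. It was kept on medium with the synthetic auxin 2,4-D and subcultured every 7 days. All 6 libraries came from the stable AtPIN5 line, which the labels do not describe as 1 clone or several. The 3 EST libraries came from cells given 1 µM β-estradiol in DMSO at the start of the subculture, and the 3 DMSO libraries from cells given the solvent alone, both for 48 h. The labels name Novogene as the sequencing company of DMSO 1, 2 and 3 and of EST 1, and IAB for EST 2 and 3. EST 1 therefore differs from EST 2 and 3 in company as well as in AtPIN5 level, and these cannot be told apart. An untransformed line treated with estradiol was not analysed here, so a response to estradiol cannot be told apart from a response to AtPIN5.

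PIN proteins are membrane carriers of the plant hormone auxin. The long PINs of Arabidopsis sit in the plasma membrane and move auxin out of the cell, and their placement sets the direction of auxin flow. PIN5 of Arabidopsis is a short member of the family that resides at the endoplasmic reticulum, where it is linked to the distribution of auxin within the cell and to auxin metabolism. The deposited files give identifiers without gene names, and 0 of them matched the reference gene table, so no function is given to any of the 73 transcripts, and only 2 are named.

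Libraries held 11776234 to 17281241 estimated reads. DMSO 2 and 3 lay close together, with an SD of 0.415 across gene models for their log2 difference, against 0.832 and 0.838 for DMSO 1 with either and 0.668 for EST 2 with EST 3. By the same SD, DMSO 1 lay nearer to EST 1, 2 and 3 (1.35, 1.24 and 1.16) than the other controls did. The SD from EST 1, 2 and 3 was 1.78, 1.51 and 1.35 for DMSO 2 and 1.79, 1.5 and 1.35 for DMSO 3. EST 1 stood at 1.18 from EST 2 and at 1.27 from EST 3. The effective length is the length by which Salmon divides the reads of a transcript to reach TPM, and it is estimated for each library. Among gene models 1000 to 1500 bases long it fell short of the full length by a median of 255 and 256 bases for the IAB libraries and of 380 to 435 bases for those of Novogene.

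AtPIN5, whose order defines the group, had control levels of 1.51, 0.387 and 0.942 TPM in replicates 1, 2 and 3, which rest on 29, 5 and 14 reads. Its levels in EST 1, 2 and 3 were 23.99, 95.4 and 341 TPM and rest on 363, 2009 and 6133 reads. The groups did not overlap. Exact Poisson 95% intervals, which cover counting error only, ran from 21.6 to 26.6 TPM in EST 1, from 91.3 to 99.7 in EST 2 and from 333 to 350 in EST 3. The transgene thus rose 3.98-fold from EST 1 to EST 2, a step between companies, and 3.58-fold from EST 2 to EST 3, a step within IAB. EdgeR's quasi-likelihood test with company as a covariate gave a log2 change of 4.87 ± 0.75 (SE) with an adjusted p of 0.0106. No control came from IAB, so that term compares EST 1 alone with the DMSO libraries and rests on 1 induced library. Without the company term, over all 3 EST libraries, the test gave 7.43 ± 1.11 (SE) with an adjusted p of 0.0129. Leaving out DMSO 2 (adjusted p = 0.0755) or DMSO 3 (adjusted p = 0.0791) removed that call. In the company-adjusted fit the AtPIN5 difference of EST 2 and 3 (IAB) from EST 1 (Novogene) was 3.04 ± 0.92 (SE) on the log2 scale. It did not pass the threshold by edgeR (adjusted p = 0.0994), whereas DESeq2 called it (3.01, adjusted p = 0.00262). The call thus depended on the method, and it rests on 1 Novogene EST library.

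The order of AtPIN5 was one of the less frequent orders among induced transcripts. Counting every gene model that met the read, fold and level criteria, 695 were induced, and the 73 ordered transcripts made up 10.5% of them. The opposite order, EST 3 below EST 2 below EST 1, held for 221 (31.8%) and was the most frequent of the 6 orders. EST 2 below EST 3 below EST 1 held for 136, EST 3 below EST 1 below EST 2 for 117 and EST 1 below EST 3 below EST 2 for 106. Only EST 2 below EST 1 below EST 3 was rarer, with 42. The level criterion is set on EST 3 and favours orders with a high EST 3. With 5 TPM required in any EST library instead, 950 gene models were induced, of which the same 73 (7.68%) had the AtPIN5 order and 339 (35.7%) the opposite one. EST 3, the library with the most AtPIN5 mRNA, was the highest EST library for 115 of the 695, EST 2 for 223 and EST 1, the library with the least AtPIN5 mRNA, for 357.

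**Figure D1:**
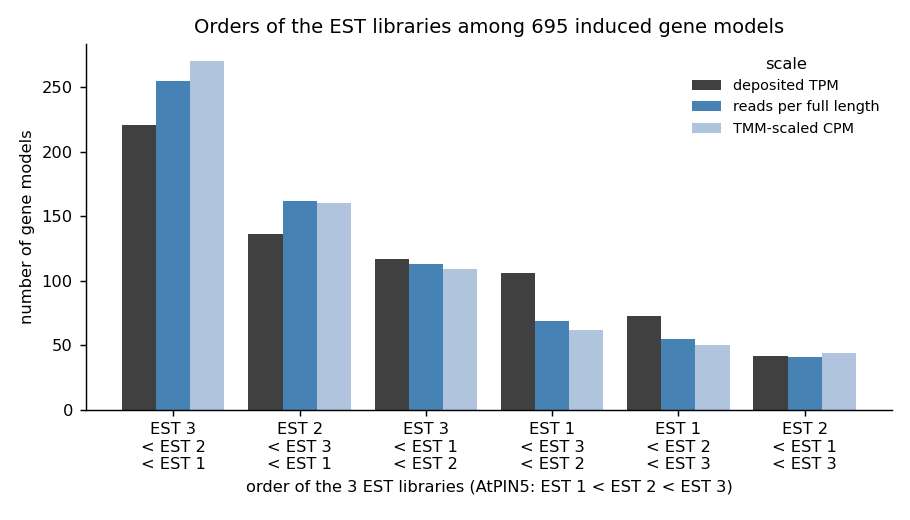
Number of induced gene models (of 695, vertical axis) with each of the 6 orders of the EST libraries, on 3 scales shown by the bars. On the deposited TPM the AtPIN5 order holds for 73 and the opposite order for 221; on TMM-scaled CPM the numbers are 50 and 270.

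The ordered transcripts were mostly low in the controls and moderate after induction. Their median level was 0.972, 0.520 and 0.642 TPM in DMSO 1, 2 and 3, and 7.88, 13.8 and 21.2 TPM in EST 1, 2 and 3. In EST 3 they ranged from 5.03 to 645 TPM, with 19 under 10 TPM, 30 from 10 to under 50, 13 from 50 to under 100 and 11 at 100 TPM or more. All but 1 of them thus stayed below AtPIN5 in that library. The 622 induced transcripts with other orders had medians of 2.00, 0.859 and 0.868 TPM in DMSO 1, 2 and 3 and of 30.1, 23.3 and 17.1 TPM in EST 1, 2 and 3. The median ordered transcript was thus lower than these in every library but EST 3, a pattern that the rule in part selects.

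**Figure D2:**
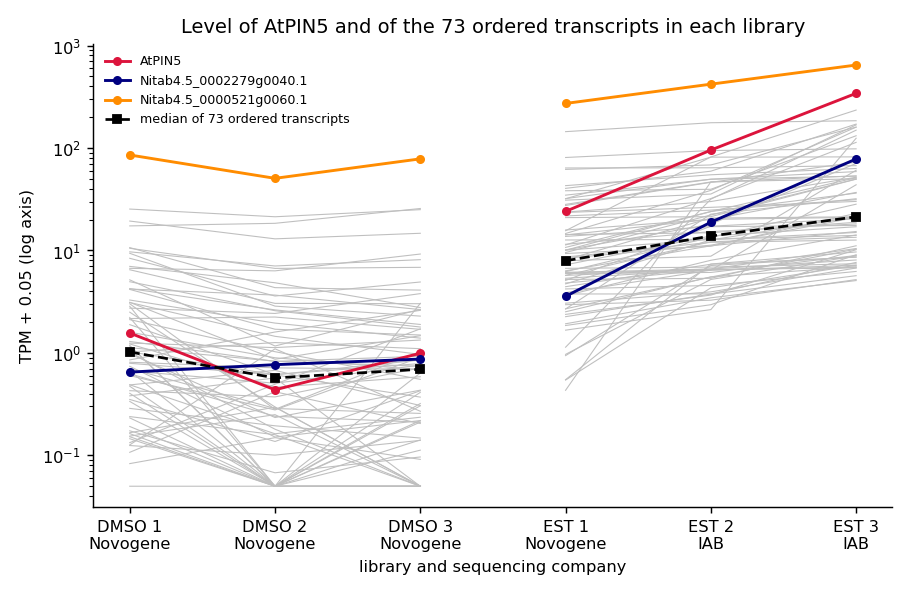
Level of each ordered transcript (grey), their median (dashed), AtPIN5 and the 2 named transcripts in the 6 libraries, as TPM with 0.05 added on a log axis. Lines join libraries of a group for legibility only; all grey lines rise from EST 1 to EST 3, and the median goes from 7.88 to 21.2 TPM while AtPIN5 goes from 23.99 to 341 TPM.

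Nitab4.5_0002279g0040.1 followed the 2 EST steps of AtPIN5 most closely among transcripts with at least 10 reads in every EST library. Likeness was measured as the Euclidean distance between the pairs of log2 steps over the 3 EST libraries, and its distance was 0.479. Its control levels were 0.600, 0.718 and 0.821 TPM (8, 6 and 8 reads) in replicates 1, 2 and 3. In the EST replicates 1, 2 and 3 they were 3.51, 18.8 and 78.1 TPM (49, 226 and 806 reads). The 3 controls lay close together, and the counting intervals of the 3 EST libraries did not overlap. It rose 5.36-fold from EST 1 to EST 2 and 4.15-fold from EST 2 to EST 3 on TPM, both more than AtPIN5. On CPM, which is not divided by length, its first step was smaller than that of AtPIN5 (3.07-fold against 3.68-fold), as it was on reads per full length (3.19-fold against 3.82-fold). From the DMSO mean to EST 1, however, it rose 4.93-fold, against 25.3-fold for AtPIN5. Its log2 change in edgeR's quasi-likelihood fits was 3.06 ± 0.79 (SE) with company as a covariate and 5.53 ± 0.98 (SE) without. The first compares EST 1 alone with the DMSO libraries.

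Nitab4.5_0000521g0060.1 had the highest TPM of the ordered transcripts in EST 3. Its control levels were 85.4, 50.5 and 78.3 TPM in replicates 1, 2 and 3, and its levels in EST 1, 2 and 3 were 272, 419 and 645 TPM. The groups did not overlap, and the lowest EST level was 3.18 times the highest control level, close to the limit of the rule. On TPM it rose 1.54-fold at each step, against 3.98-fold and 3.58-fold for AtPIN5. Its first step was 2.96-fold on CPM and 3.07-fold on reads per full length, where AtPIN5 rose 3.68-fold and 3.82-fold, and on neither of these scales did it meet the whole rule. This gene model is 216 bases long and its levels rest on 28 to 83 reads in the DMSO and 145 to 839 reads in the EST libraries. Both named transcripts had fractional read estimates in some libraries, which arise where Salmon shares reads out among similar entries.

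On TPM, the steps of the ordered transcripts were in most cases smaller than those of AtPIN5. From EST 1 to EST 2 the rise was 1.54-fold in the median, and 9 of 73 reached the AtPIN5 step. From EST 2 to EST 3 it was 1.51-fold in the median, and 8 of 73 reached it. From EST 1 to EST 3 the median rise was 2.48-fold, with quartiles of 1.504 and 5.02, against 14.2-fold for AtPIN5, a rise reached by 7. Only 2 transcripts rose at least as much as AtPIN5 at both steps, Nitab4.5_0002279g0040.1 and a transcript at 1.09, 31.6 and 149 TPM in EST 1, 2 and 3. On CPM, and likewise on reads per full length, this held for 1 transcript, which was not Nitab4.5_0002279g0040.1. For 23 of 73, at least 1 of the steps was smaller than 1.1-fold.

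The shape of the rise varied among them. Both steps exceeded 2-fold in 8 transcripts, only the first in 15, only the second in 14 and neither in 36. The 8 with both steps over 2-fold stood at 1.09 to 15.5 TPM in EST 1, 13.4 to 81.7 TPM in EST 2 and 28.2 to 234 TPM in EST 3. The most uneven transcripts made nearly all of their rise at a single step. One stood at 0.382, 46.6 and 49.96 TPM in EST 1, 2 and 3, a first step of 122-fold from 6 reads to 1572 and a second of 1.07-fold. Another stood at 1.62, 2.60 and 124 TPM, a second step of 47.9-fold from 23 reads to 987. These were chosen after their values were seen, and they show that a shared order can hold profiles unlike that of AtPIN5.

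**Figure D3:**
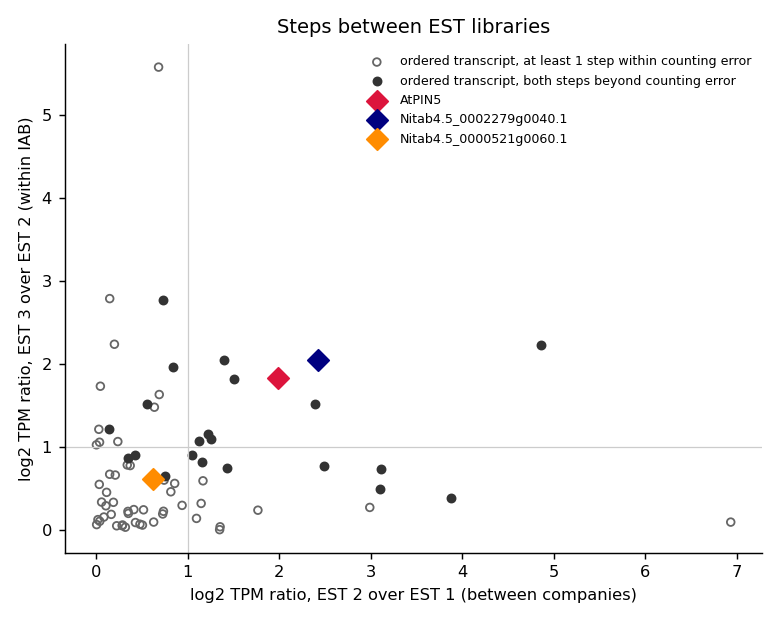
Log2 TPM ratio of EST 2 over EST 1 (horizontal axis) and of EST 3 over EST 2 (vertical axis) for each ordered transcript, AtPIN5 and the 2 named transcripts, with grey lines at 2-fold. Filled points are the 23 transcripts with counting intervals apart at both steps; 36 transcripts lie under 2-fold on both axes, and AtPIN5 lies over 2-fold on both.

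Counting error alone was large enough to blur part of the order. The 95% Poisson intervals of EST 1 and EST 2 did not overlap for 40 of 73 transcripts, those of EST 2 and EST 3 for 37, and both for 23. At neither step were they apart for 19. The lowest EST interval lay above the highest DMSO interval for 66 of 73, a separation that the 3-fold limit of the rule favours. The median ordered transcript had 28 reads over the DMSO libraries together and 114, 213 and 262 reads in EST 1, 2 and 3. For 19 transcripts the DMSO libraries together held under 10 reads, and for 20 at least 1 of them held 0, so the size of their induction is poorly determined.

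The first step, from EST 1 to EST 2, depended on how the level was scaled, and the direction of the second did not on the scales tried. On CPM (reads scaled by library size and TMM, not divided by length), EST 2 was at or below EST 1 for 31 of the 73 transcripts, whereas EST 3 stayed above EST 2 for all 73. The AtPIN5 order was kept by 42 transcripts on CPM and by 44 on reads divided by the full transcript length. TPM gave a first step larger than CPM by 0.45 on the log2 scale in the median ordered transcript, by 0.29 in the other induced transcripts, by 0.12 over the 37866 gene models with reads in every EST library and by 0.11 for AtPIN5. For the second step the median difference was 0.01. The log2 ratio of effective lengths, by which TPM divides, in EST 2 over EST 1 was −0.03 in the median ordered transcript, against 0.13 in the other induced transcripts, 0.29 over all detected gene models and 0.31 for AtPIN5. This ratio ranged from −1.70 to 1.36 among the ordered transcripts and from −1.85 to 2.05 over all detected gene models. A lower effective length gives a higher TPM from the same reads, and the rule, applied to TPM, selects for it.

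**Figure D4:**
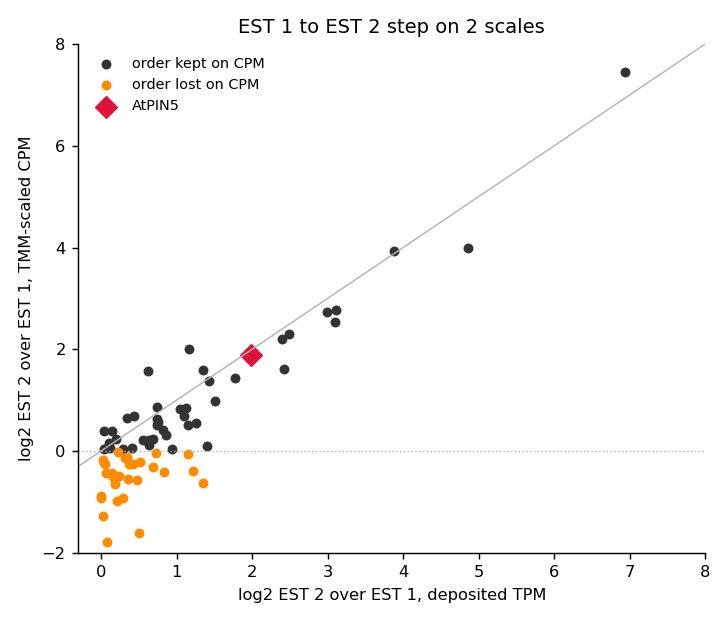
Log2 ratio of EST 2 over EST 1 on the deposited TPM (horizontal axis) and on TMM-scaled CPM (vertical axis) for the 73 ordered transcripts and AtPIN5; the diagonal marks equal values and the dotted line no change on CPM. The 31 orange points, which lie at or below the dotted line, have the AtPIN5 order on TPM and not on CPM, and AtPIN5 lies near the diagonal.

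A set of 20 transcripts kept the AtPIN5 order on all 3 scales with counting intervals apart at both steps. They stood at 5.41, 21.3 and 47.5 TPM in the median in EST 1, 2 and 3, and their rise from EST 1 to EST 3 ranged from 2.33-fold to 137-fold, with a median of 7.36-fold. Of the 8 transcripts with both steps over 2-fold, 7 are among them, as are both named transcripts. The 20 were picked on the same values, so their steeper rise is no finding.

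Within each company the comparisons can be set side by side. Among the Novogene libraries, EST 1 stood 8.01 times above the DMSO mean in the median ordered transcript, with quartiles of 5.49 and 16.3, and 25.3 times above it for AtPIN5. Among the IAB libraries, EST 3 stood at least 2 times above EST 2 for 22 of the 73 (30.1%). The same held for 63 of the 695 induced transcripts, which include these, and for 481 of 18502 gene models (2.60%) with at least 5 TPM in both libraries. The share among the ordered transcripts is raised by the rule. The sets also differ in level, as the 18502 had to reach 5 TPM in EST 2, where ordered transcripts went down to 2.60 TPM. Gene models with a low EST 2 level and a large step are thus missing from the 18502. A step from EST 2 to EST 3 at least as large as that of AtPIN5 was seen in 52 of the 18502, and in 17 induced transcripts, of which 8 are ordered transcripts. Over the 695 the median log2 ratio of EST 3 to EST 2 was −0.26, and 251 (36.1%) were higher in EST 3, the library with more AtPIN5 mRNA. No DMSO library came from IAB, so induction could not be measured within that company.

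The order of the controls was not used by the rule. AtPIN5 stood in the order DMSO 2, 3, 1 from low to high, from 5, 14 and 29 reads. The comparison here is with the 877 transcripts induced in other orders with at least 5 TPM in any EST library. The same strict order held for 23 of the 73 ordered transcripts (31.5%) and for 286 of these 877 (32.6%). It held for 20.1% of the 41990 gene models with at least 10 reads over all libraries. DMSO 1 was the highest control for 49 of 73 (67.1%), for 75.3% of the 877 and for 41.5% of all detected gene models. It was also the control nearest to the EST libraries across gene models. Among the 30 ordered transcripts with at least 50 reads over the controls, DMSO 1 was the highest for 24 and the AtPIN5 order held for 12. The ordered transcripts thus resembled the 877 in this respect more than gene models at large. These shares were not tested. The counting intervals of DMSO 2 and 3 overlapped for 72 of the 73, so the order of these libraries was not detectable at this depth for nearly all of them.

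Fits across all gene models called most of the ordered transcripts, as the rule leads one to find. With company as a covariate, edgeR's quasi-likelihood test called 65 of the 70 tested as higher in EST, where 13.4% of all 33955 gene models tested were called higher. Their median log2 change was 3.26, against −0.03 over all gene models. No control came from IAB, so this term compares EST 1 alone with the DMSO libraries, and its calls describe 1 induced library. Without the company term, over all EST libraries, edgeR called 67 of 70, against 7.93% of all, with medians of 3.78 and −0.01. The latter count was 0 of 73 without DMSO 2 and 0 of 73 without DMSO 3, where all 73 were higher at an unadjusted p under 0.05. Over all gene models 4495 of 35552 and 4506 of 35378 were. In those fits 0 and 1 of all gene models were called higher, so these counts say nothing particular to the ordered transcripts. It was 43 without EST 2, against 1.99% of all gene models, and DESeq2 on all libraries called 69, against 13.6%. The former was 43 without DMSO 2 and 43 without DMSO 3, against 5.34% and 5.44% of all. The lowest EST level exceeded the highest DMSO level in 20.6% of the 41990 detected gene models, and in the 73 by rule. The low-count filter left 3 ordered transcripts untested.

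The company-adjusted fit also compares the EST libraries of the 2 companies. Of 70 ordered transcripts tested, 2 were called higher in EST 2 and 3 (IAB) than in EST 1 (Novogene), where 1.52% of all gene models were. None was called lower, against 893 of all 33955 gene models tested. Without EST 2 or EST 3 each company is left with 1 EST library, so no count is given for those fits. Without DMSO 1 the fit called 10 higher, against 12.7% of all gene models, and 3 lower, against 4051 of 35446. DESeq2 on all libraries called 9 higher, against 5.98%. The rule selected for this direction on TPM, whereas the fit uses counts, on which 31 of the 73 had EST 2 at or below EST 1, and nothing is read from these numbers.

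At the edges of the rule, the ordered transcript nearest to the fold limit had a lowest EST level 3.03 times its highest control level, and the nearest gene model left out 2.90 times. At the level limit these were 5.03 and 4.78 TPM in EST 3. A further 51 gene models met the fold and the order below 5 TPM in EST 3. Another 22 met every criterion but had 0 reads over the controls, and 3 of the 73 had a single control read. By length the ordered transcripts had a median of 891 bases, against 936 for the other induced transcripts and 1158 for all detected gene models. Read estimates were whole, within 0.0015 reads, in every library for 18 of 73 (24.7%), for 27.5% of the other induced transcripts and for 23.9% of all detected gene models.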

How the data were processed

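The submitters' processing notes name Trimmomatic and Salmon (version 1.3.0) for the 6 libraries; the Salmon options are not given in the sources. For each gene model the authors deposited estimated counts, TPM values, and the length and effective length in bases. Tobacco is an allotetraploid, and Salmon divides reads between similar entries, so levels of near-identical copies are uncertain. The ordered transcripts and the rules were chosen with earlier results of these data known.

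The rule was applied to the deposited TPM and to estimated counts rounded to whole numbers. The named transcripts are the one nearest to AtPIN5 in its EST steps and the one highest in EST 3. Rounded counts were tested with edgeR 4.0.16 (R 4.3.3), with filterByExpr defaults (10 counts, 15 in total), TMM scaling, robust quasi-likelihood fits and Benjamini-Hochberg adjustment over all entries at 0.05. The SE given with edgeR changes was derived as the absolute log2 change divided by the square root of the quasi-likelihood F statistic. DESeq2 1.42.0 was an alternative. The script was also run on simulated counts that held no company difference. That run cannot show how the fits behave where company is confounded with EST library, as here. Libraries held 11776234 to 17281241 reads, and intervals are exact Poisson (95%) and cover counting error only. The labels speak of biological replicates without saying whether cultures were separate; p-values then reflect only the spread of these libraries, which may be technical. Deviations from group means correlated at 0.40, 0.13 and 0.33 for replicate numbers 1, 2 and 3, over the 0.1 set for pairing, so the number was also fitted as a block; DMSO 2 and 3 lie close together, so these values are not independent.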

Additional observations from a re-analysis of the deposited data

How the results depend on the processing

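The number of ordered transcripts depended on the limits and on single libraries. It was 73, 128 at a fold of 2, 48 at a fold of 4, 18 with whole-number estimates and 23 with counting intervals apart. Leaving out 1 library gave 76 to 468: 125, 76 and 79 when DMSO 1, 2 or 3 was left out, and 380, 242 and 468 when EST 1, 2 or 3 was, which drops 1 step of the order by construction. TMM-scaled CPM gave 53, of which 36 are among the 73, and reads per full length gave 63, of which 38 are. For these 2 counts the limit of 5 in EST 3 was set on the scale itself and not on TPM, so the level criterion differed too.

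AtPIN5 kept its company-adjusted call in every alternative run that held all EST libraries (4.49 to 5.55 on the log2 scale without 1 DMSO library). That term compares EST 1 alone with the DMSO libraries, so leaving out EST 2 (4.85) or EST 3 (4.84) could hardly move it. Without the company term the AtPIN5 change ranged from 6.09 to 8.09 without 1 library. With DMSO 2 and 3 summed it was 7.23, with an adjusted p of 0.0729 by edgeR. Ordered transcripts called higher in EST numbered 43 to 67 without 1 library in the company-adjusted fit (1899 to 8858 over all gene models), and 0 to 71 (0 to 3855) in the fit without the company term. That fit called 0 of 73, and 1 of all, with DMSO 2 and 3 summed. There 73 were higher at an unadjusted p under 0.05, against 4585 of 35818 over all. A replicate block in that fit gave 68 calls, against 13.2% of all gene models, and AtPIN5 rose by 6.87 (adjusted p = 0.0122 by edgeR). Calls between companies numbered 2 to 10 without 1 DMSO library (131 to 4517 over all), 7 without the low-count filter (1338) and 9 by DESeq2 (2031). The company-adjusted fit could not be made without EST 1. The causes were not tested.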

Other observations

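The 73 ordered transcripts lie on 73 different scaffolds by their identifiers. None of their neighbours on the same scaffold could therefore be an ordered transcript. Of the 76 detected gene models with the next lower or higher gene number on the same scaffold, 1 met the read and fold criteria of induction (1.32%). Around the 877 transcripts induced in other orders, with at least 5 TPM in any EST library, 54 of 911 neighbours met these criteria (5.93%). Over all detected gene models the share was 3.51%. Gene numbers are taken as they stand in the identifiers, and these shares were not tested.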
